A study of Mus musculus with 16 samples.

Results

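The activation arm of rod phototransduction was described through its transducin alpha subunit Gnat1, its transducin beta subunit Gnb1, the phosphodiesterase catalytic subunits Pde6a and Pde6b, the inhibitory phosphodiesterase subunit Pde6g and the channel subunit Cnga1. The members were all probe sets whose platform annotation gave 1 gene symbol and whose symbol was 1 of these 6 genes. This gave 9 of the 12422 probe sets tested. The probe set rule used no measured value, but the 6 genes were chosen with earlier results of these data known. Gnb1 had 3 probe sets, Pde6b had 2, and each of the other genes had 1. The series hybridised total RNA of mouse retina and mouse cortex to 1-colour oligonucleotide arrays, to measure the variation within the platform and between sites. Retina RNA came from a pool of adult C57/B6 mice, 350 in number per the first-site labels, and was run on 3 arrays at site 2 and on 5 arrays at the first site. Cortex RNA came from a pool taken at postnatal day 1, from 19 mice per the first-site labels, and was likewise run on 3 arrays at site 2 and on 5 arrays at the first site. The labels disagree on the strain of the cortex mice, given as C57/B6 for each first-site sample but as Swiss-Webster in the series' design, so organ, age and possibly strain cannot be told apart in a comparison of the tissues. The arrays of a tissue are technical replicates of 1 pool, per the labels, so standard deviations, standard errors and p-values measure the spread between arrays and not between mice. In such bulk RNA, the number of cells of a type and the RNA per cell cannot be told apart.

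In a rod, light makes transducin exchange GDP for GTP, and the alpha subunit then leaves the beta and gamma subunits. The active alpha subunit relieves the block that the Pde6g product places on the catalytic subunits encoded by Pde6a and Pde6b, and the freed enzyme hydrolyses cyclic GMP. The fall in cyclic GMP closes the cation channel that Cnga1 helps to form in the outer segment membrane, and the cell hyperpolarises. Most of these subunits are known from rods, whereas Gnb1 is a widely used G protein beta subunit that neurons of the brain also express.

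Upstream sequences are shown as description only. Whether any factor binds them, and their part in the signal of the members, was not tested. RefSeq entries on GRCm38.p6 were matched for 3 of the 6 genes, and each line gives the 250 bases before the annotated start, 5′ to 3′ on the gene's strand. They lie at chr4:155491111-155491360 on the plus strand for Gnb1, at chr5:108388123-108388372 on the plus strand for Pde6b and at chr5:72642753-72643002 on the minus strand for Cnga1. Capitals mark GGGCGG, the GC box, on either strand in Gnb1, TGCTGA, a core of the element that the rod factor Nrl binds, in Pde6b, and TAATCC, the core bound by the photoreceptor factor Crx, in Cnga1.
Gnb1: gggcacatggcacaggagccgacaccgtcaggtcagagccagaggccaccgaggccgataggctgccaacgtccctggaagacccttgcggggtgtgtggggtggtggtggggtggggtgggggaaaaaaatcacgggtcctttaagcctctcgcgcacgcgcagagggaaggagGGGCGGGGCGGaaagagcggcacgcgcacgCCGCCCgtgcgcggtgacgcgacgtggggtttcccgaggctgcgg
Pde6b: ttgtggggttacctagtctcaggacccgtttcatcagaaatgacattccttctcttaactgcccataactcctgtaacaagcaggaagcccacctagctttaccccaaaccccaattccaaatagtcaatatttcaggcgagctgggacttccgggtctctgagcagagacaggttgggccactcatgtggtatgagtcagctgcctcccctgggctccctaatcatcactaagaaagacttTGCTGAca
Cnga1: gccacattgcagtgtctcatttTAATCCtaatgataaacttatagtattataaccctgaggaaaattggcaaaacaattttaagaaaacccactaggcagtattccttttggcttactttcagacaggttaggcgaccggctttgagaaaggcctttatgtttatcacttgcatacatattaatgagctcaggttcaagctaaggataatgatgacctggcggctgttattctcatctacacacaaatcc

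The Gnb1 window was 69.2% G and C, against 49.6% in Pde6b and 38.4% in Cnga1. It held GGGCGG 3 times, with a pair that overlapped by 1 base and a copy on the opposite strand, and held neither TAATCC nor TGCTGA. The Pde6b window held TGCTGA beginning 8 bases before the start, and the Cnga1 window held TAATCC beginning 228 bases before it. TATAAA, the TATA box, was in none of the 3 windows, and CANNTG, the E-box, was in all of them. Searched on both strands of all 32536 distinct windows of that length in the table, TAATCC was in 6.25%, TGCTGA in 16.1%, TATAAA in 12.3%, GGGCGG in 33.0% and CANNTG in 66.2%. Among 11 windows of other rod phototransduction genes, TAATCC was in 7, TGCTGA in 2, TATAAA in 4, GGGCGG in 2 and CANNTG in 8. A match is only a description of the letters in the window.

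The deposited values were intensities on a linear scale. Values by array are given below as scaled intensity, with the median of the tested probe sets on each array set to 100. Differences are on the scale of log2(intensity + 16) after centring each array on its median, and the addition of 16 understates the difference of dim probe sets. The background was read from 13 control probe sets with no mouse target, and the highest of them on each array stood at 12.6 to 37.0 in scaled intensity. Array medians ran from 45.7 to 216 in deposited intensity, and the lowest belonged to cortex replicate 2 of site 2. That array also had a 3′ to 5′ ratio of 1.66 for Gapdh, against 0.76 to 0.95 on the other arrays, and of 1.85 for Actb. The Actb ratio moved with the tissue too, at 1.53 to 1.77 in retina of site 2 and 1.5 to 1.79 in retina of the first site, against 1.05 and 1.04 on the other cortex arrays of site 2 and 1.13 to 1.26 in cortex of the first site. The part of these RNA measures in the results was not tested. Between 68.5% and 78.8% of the probe sets of an array lay above its highest such control. The sites also differed in their 18S ribosomal RNA probe sets. The 3′ probe set read 27.5 to 101 in deposited intensity at site 2 and 437 to 2907 at the first site, and the 5′ probe set read 2.40 to 17.6 at site 2 and 216 to 6709 at the first site. Rod markers checked the tissue labels. The 6 measured of 8 rod markers summed to a scaled intensity of 19615 to 23914 in retina and 121 to 131 in cortex at site 2, and to 22045 to 24624 in retina and at most 148 in cortex at the first site.

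**Figure D1:**
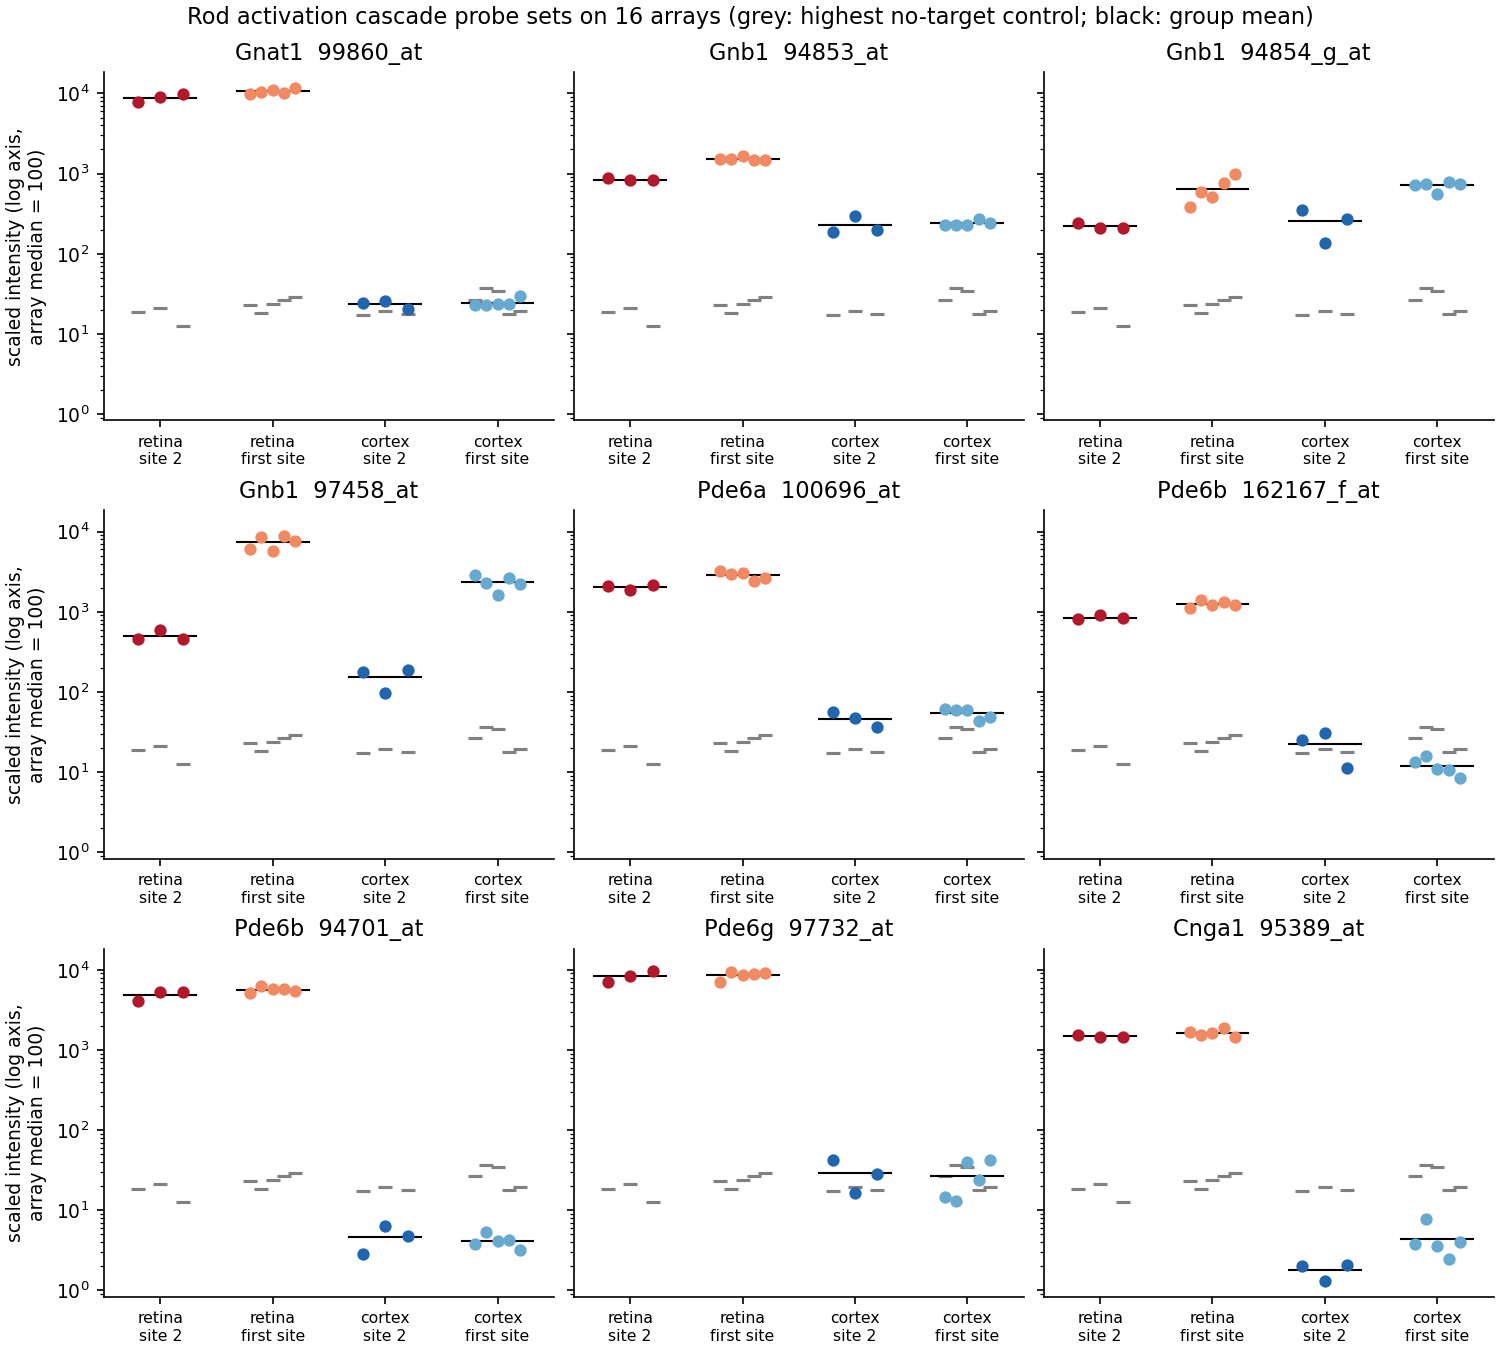
Scaled intensity (array median set to 100, log axis) of the 9 probe sets of the 6 genes, 1 point per array, in retina of site 2, retina of the first site, cortex of site 2 and cortex of the first site; black lines are group means and grey dashes the highest no-target control of each array. The retina arrays lie above all cortex arrays of their site in every panel but that of Gnb1 94854_g_at.

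All 6 genes were higher in retina than in cortex at both sites, through 8 of the 9 probe sets. At site 2, 16.7% of all probe sets tested were called higher in retina, and at the first site 21.9% were, by limma with Benjamini-Hochberg adjusted p under 0.05. Without cortex replicate 2 of site 2 the share there was 26.6%. With all arrays kept, none of the 9 was called lower in retina at either site. Without that cortex array, Gnb1 94854_g_at was called lower in retina at site 2. The retina and cortex arrays of a site did not overlap, with retina above, in the same 8 of 9 probe sets at each site, against 22.0% of all probe sets at site 2 and 17.4% at the first site. The median difference of the 9 was 5.07 on the log2 scale at site 2 and 5.60 at the first site, where the medians over all probe sets were -0.02 and -0.05. With the probe sets that have only a bound put at it, the medians of the 9 were 5.07 and 5.33.

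Gnat1, the rod transducin alpha subunit, was measured by 99860_at. Its scaled intensities in retina were 7727, 8969.7 and 9755 at site 2 and 9777, 10336, 10988, 10218 and 11676 at the first site. In cortex they were 24.1, 25.6 and 20.4 at site 2 and 22.9, 22.7, 23.7, 23.5 and 30.0 at the first site. Every retina array was far above every cortex array, and cortex lay close to the no-target controls, which it exceeded on 3 of 3 arrays at site 2 and on 2 of 5 at the first site. The log2 difference was 7.84 ± 0.20 (SE) at site 2 and 8.08 ± 0.07 at the first site, with limma adjusted p of 9.3e-09 and 4.7e-20. The size at the first site rests in part on the 3 cortex arrays not above the controls, and Gnat1 had the highest intensity of all probe sets on 3 of 5 retina arrays there and on 0 of 3 at site 2.

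Gnb1, which supplies the beta subunit of rod transducin and of G proteins elsewhere, had 3 probe sets whose tissue differences did not match each other. Probe set 94853_at read 871, 825 and 833 in retina and 188, 295 and 199 in cortex at site 2. It read 1510.0, 1512, 1641, 1464 and 1477 in retina and 226, 232, 231, 269 and 243 in cortex at the first site. Every retina array was above every cortex array, and every cortex array was well clear of the no-target controls. The log2 difference was 1.88 ± 0.16 at site 2 and 2.60 ± 0.07 at the first site, with limma adjusted p of 1.1e-05 and 3.4e-14.

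Probe set 97458_at, designed from an expressed sequence tag record, also had higher signal in retina. It read 457, 597 and 459 in retina and 176, 97.2 and 188 in cortex at site 2. At the first site it read 6102, 8607, 5813, 8911 and 7592 in retina and 2856, 2316, 1599.7, 2648 and 2240.0 in cortex. The tissues did not overlap within a site, although the first-site cortex arrays were brighter than the site 2 retina arrays. The log2 difference was 1.64 ± 0.24 at site 2 and 1.68 ± 0.15 at the first site, with limma adjusted p of 0.00041 and 6.2e-08. Without centring of the arrays, the limma adjusted p at site 2 was 0.18 for 97458_at and 0.073 for 94853_at.

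Probe set 94854_g_at was annotated to the same sequence record as 94853_at and did not pass the test in either direction. It read 240.3, 210.5 and 211 in retina and 353, 135 and 272 in cortex at site 2. It read 386, 588, 517, 758 and 981 in retina and 725, 738, 559, 793 and 750.1 in cortex at the first site. The tissues overlapped at both sites. The log2 difference was -0.11 (95% interval -0.77 to 0.56) at site 2 and -0.19 (-0.57 to 0.18) at the first site, with limma adjusted p of 0.911 and 0.414. Without cortex replicate 2 of site 2 the difference there was -0.51 with limma adjusted p of 0.0085, a call of the opposite direction to the other Gnb1 probe sets.

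Pde6a encodes the catalytic alpha subunit of the rod phosphodiesterase and was measured by 100696_at. It read 2068, 1893 and 2152 in retina and 55.9, 47.9 and 36.0 in cortex at site 2, and 3182, 2959, 3059, 2407 and 2678 in retina and 60.6, 60.4, 60.2, 43.8 and 48.4 in cortex at the first site. The groups were far apart, yet Pde6a exceeded the no-target controls on all 8 cortex arrays. The log2 difference was 5.07 ± 0.19 at site 2 and 5.38 ± 0.10 at the first site, with limma adjusted p of 5.6e-08 and 5.8e-16.

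Pde6b encodes the catalytic beta subunit and was measured by 94701_at and 162167_f_at. Probe set 94701_at read 4062, 5222 and 5284 in retina and 2.88, 6.35 and 4.77 in cortex at site 2, and 5185, 6194, 5716, 5749.5 and 5482 in retina and 3.84, 5.31, 4.08, 4.29 and 3.23 in cortex at the first site. All 8 cortex arrays were at or under the no-target controls, so the difference has only a lower bound: retina was at least 146-fold higher at site 2 and at least 139-fold higher at the first site, with limma adjusted p of 8.9e-08 and 6.8e-19. Such a bound sets the retina mean against the highest no-target control, or the probe set's own value if higher, on each cortex array.

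The other Pde6b probe set, 162167_f_at, read 806, 907 and 825 in retina and 25.2, 30.4 and 11.1 in cortex at site 2, and 1124, 1416, 1217, 1326 and 1231 in retina and 13.3, 15.9, 11, 10.6 and 8.44 in cortex at the first site. It had the same direction as 94701_at with no overlap of the tissues, and it exceeded the no-target controls on 2 of 3 cortex arrays at site 2 and on 0 of 5 at the first site. The log2 difference at site 2 was 4.63 ± 0.31 (limma adjusted p = 2.4e-06). At the first site retina was at least 31.2-fold higher (limma adjusted p = 8.1e-16).

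Pde6g encodes the inhibitory subunit that holds the rod enzyme silent in the dark and was measured by 97732_at. It read 6995, 8439.5 and 9686 in retina and 42.6, 16.4 and 28.4 in cortex at site 2, and 7085, 9274, 8522, 8939 and 9011 in retina and 14.4, 13.0, 39.6, 23.7 and 42.8 in cortex at the first site. The tissues stood well apart, and the cortex values scattered around the no-target controls, which they exceeded on 2 of 3 arrays at site 2 and on 3 of 5 at the first site. The log2 difference was 7.52 ± 0.18 at site 2 and 7.74 ± 0.16 at the first site, with limma adjusted p of 8.4e-09 and 1.6e-15.

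Cnga1 encodes a subunit of the rod cyclic nucleotide-gated channel, the last element of the arm, and was measured by 95389_at. It read 1517, 1452 and 1468 in retina and 2.01, 1.31 and 2.08 in cortex at site 2, and 1667, 1547, 1611, 1886 and 1469 in retina and 3.84, 7.69, 3.60, 2.49 and 3.97 in cortex at the first site. Retina was far above cortex on every array, and no cortex array exceeded the no-target controls. Retina was at least 45.0-fold higher at site 2 and at least 40.3-fold higher at the first site, with limma adjusted p of 3.9e-07 and 3.4e-16.

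**Figure D2:**
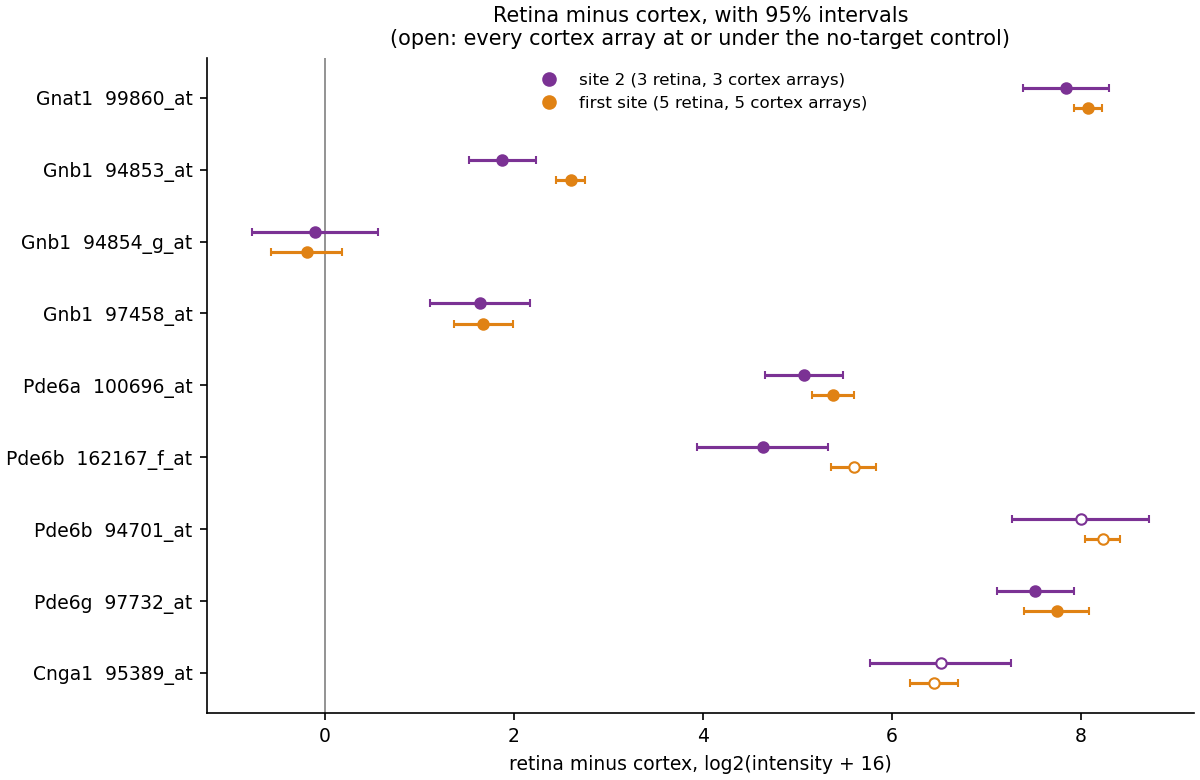
Retina minus cortex difference on the log2(intensity + 16) scale with 95% intervals for the 9 probe sets, site 2 above the first site in each pair; open symbols mark probe sets with every cortex array at or under the no-target controls, whose sizes are not measured. The Gnb1 probe sets lie between -0.19 and 2.60, and the probe sets of the other genes lie at 4.63 or more.

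The retina minus cortex difference was then compared between the sites by the interaction term of 1 fit over all 16 arrays. Only the 4 probe sets above the no-target controls on every array, 3 of Gnb1 and that of Pde6a, have a size for it. Gnb1 94853_at had a smaller difference at site 2 than at the first site, by -0.72 ± 0.15 on the log2 scale (limma adjusted p = 0.0080), and 1.30% of all probe sets were called in that direction. The interaction was -0.03 (95% interval -0.62 to 0.55) for 97458_at, 0.09 (-0.66 to 0.83) for 94854_g_at and -0.31 ± 0.20 for Pde6a, with limma adjusted p of 0.979, 0.958 and 0.485. Without centring of the arrays, 94853_at had an interaction of -0.86 with limma adjusted p of 1.00.

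Within retina, 5 of the 9 probe sets were called lower at site 2 than at the first site, against 12.5% of all probe sets, and none was called higher. All 3 site 2 arrays lay below all 5 first-site arrays in 7 of the 9, against 15.7% of all probe sets. The median site difference of the 9 was -0.49 on the log2 scale, against 0.04 over all probe sets. Gnb1 supplied 3 of the 9. Over the 6 probe sets of the other genes the median was -0.26, with 2 called lower and 4 not called. The widest was that of Gnb1 97458_at, at 504 ± 80.0 in retina of site 2 and 7405 ± 1412 in retina of the first site (SD, n = 3 and 5 arrays), a log2 difference of -3.83 ± 0.20 or 14.3-fold (limma adjusted p = 3.4e-11). In cortex the same probe set averaged 153 ± 49.1 at site 2 and 2332 ± 479 at the first site, a log2 difference of -3.80 ± 0.20 or 13.9-fold (limma adjusted p = 1.2e-10). Both tissues were far lower at site 2, and the interval of the difference between them is that of the interaction given above.

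Gnb1 94854_g_at was also lower at site 2 in both tissues, by -1.42 ± 0.25 in retina and -1.51 ± 0.25 in cortex on the log2 scale, with limma adjusted p of 0.00022 and 0.00052. Gnb1 94853_at was lower at site 2 in retina, by -0.85 ± 0.10 (limma adjusted p = 5.9e-06). In cortex it differed by -0.12 ± 0.10, which did not pass the test (limma adjusted p = 0.476), and -0.26 with limma adjusted p of 0.029 without cortex replicate 2 of site 2. Within cortex, 2 of the 4 probe sets measured above the no-target controls were called lower at site 2, against 6.40% of all probe sets. Without cortex replicate 2 of site 2, 3 of the 4 were, against 22.5% of all probe sets. All of these member calls were of Gnb1. The 4 were above the controls on every cortex array, whereas the shares also take in probe sets at background. The 18S probe sets moved with the site in the same direction, and their part in the Gnb1 differences was not tested.

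Among the members with rod-restricted use, Pde6a was lower in retina at site 2, by -0.49 ± 0.14 on the log2 scale (limma adjusted p = 0.012). The Pde6b probe set 162167_f_at was lower by -0.57 ± 0.22 (limma adjusted p = 0.044), a call lost in 14 of 24 alternative settings. Gnat1 differed by -0.28 ± 0.13, Pde6b 94701_at by -0.24 ± 0.21, Cnga1 by -0.15 ± 0.23 and Pde6g by -0.05 ± 0.19, and none of these passed the test, with limma adjusted p of 0.113, 0.445, 0.71 and 0.911. The site 2 and first-site retina arrays overlapped in Pde6g and Cnga1 alone among the 9. Without centring of the arrays only Gnb1 97458_at was called in retina, and without retina replicate 2 of site 2 only the 3 Gnb1 probe sets were.

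**Figure D3:**
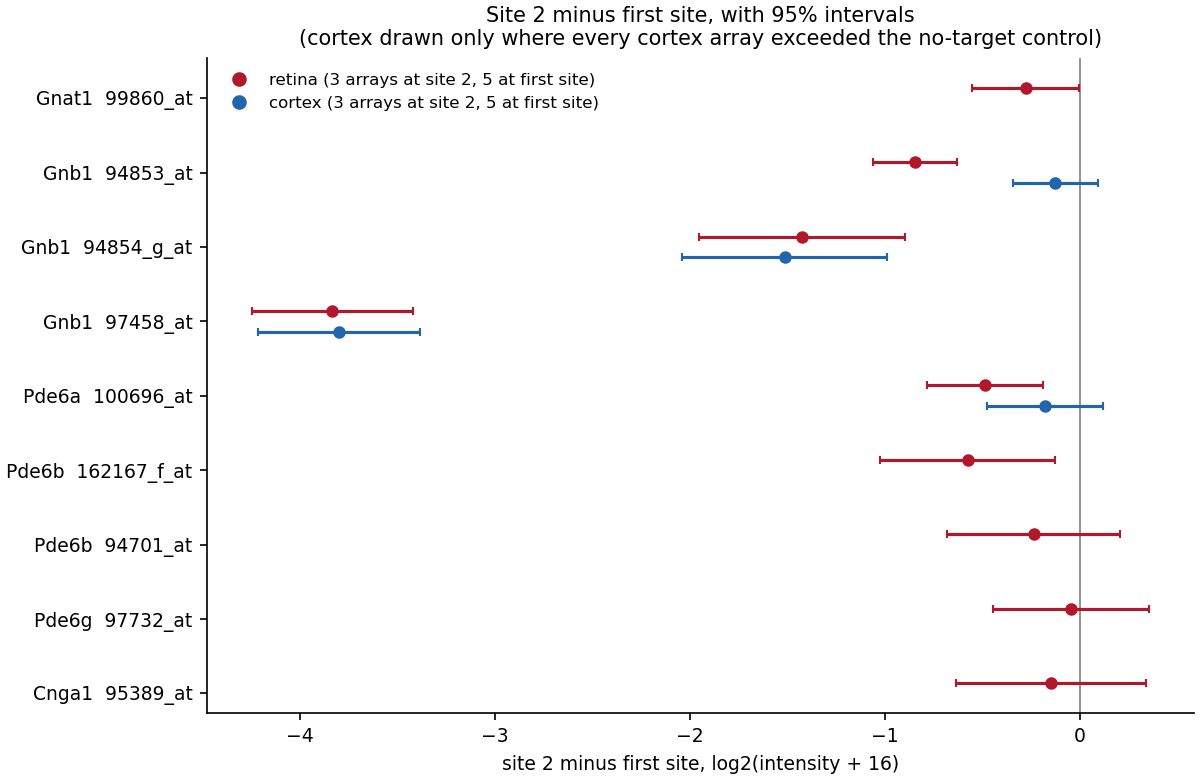
Site 2 minus first site on the log2(intensity + 16) scale with 95% intervals, retina above cortex for each probe set; cortex is drawn only where every cortex array was above the no-target controls. Gnb1 97458_at stands at -3.83 in retina and -3.80 in cortex, and the probe sets of the other genes lie between -0.57 and -0.05.

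The spread between repeat arrays was narrower in retina than in cortex of site 2 for most members. The coefficient of variation of scaled intensity in retina was 2.32% for Cnga1, 6.50% for Pde6a, 11.6% for Gnat1 and 16.1% for Pde6g at site 2, and 9.66%, 10.9%, 7.0% and 10.2% at the first site. Over all probe sets above the no-target controls on all arrays of the group, the median coefficient was 10.2% in retina of site 2 and 11% in retina of the first site. Gnb1 94854_g_at had 7.72% at site 2 and 35.7% at the first site, the widest of the 9 in retina. In cortex of site 2 the coefficient was 25.7%, 43.5% and 32% for Gnb1 94853_at, 94854_g_at and 97458_at, and 21.4% for Pde6a. Gnat1 had 11.4% there, beside its 11.6% in retina of site 2. The median over all probe sets above the controls on all arrays of that cortex group was 19.5%. Pde6b 162167_f_at had 44.9% and Pde6g 45.1%, but each exceeded the controls on 2 of 3 arrays and so lies outside that set.

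The rest of the rod phototransduction machinery was compared through a list of 15 genes, of which 7 were measured by probe sets with 1 symbol. All 7 were called higher in retina at both sites, against 16.7% of all probe sets at site 2 and 21.9% at the first site. The median log2 difference of the 7 was 7.36 at site 2 and 6.95 at the first site. It was 7.04 and 6.67 with the genes that have only a bound put at it. Sag, the rod arrestin that helps to end the light response, differed by 7.57 ± 0.22 at site 2 and 8.06 ± 0.09 at the first site. Its cortex values exceeded the no-target controls on 3 of 3 arrays at site 2 and on 1 of 5 at the first site. Pdc, the phosducin that binds transducin beta and gamma subunits, differed by 7.76 ± 0.24 at site 2, where cortex exceeded the controls on 1 of 3 arrays. It was at least 195-fold higher at the first site. Rgs9, which speeds GTP hydrolysis on transducin, had the smallest difference of the list at both sites, with 2.03 ± 0.29 at site 2 and 1.43 ± 0.15 at the first site. Its cortex values exceeded the controls on only 1 of 3 arrays at site 2 and 1 of 5 at the first site. The size is thus limited by the background, and its mean scaled intensity in retina was only 110 and 75.4. The next smallest at the first site was Gucy2e, a retinal guanylate cyclase, which was at least 6.48-fold higher at site 2 and at least 3.35-fold higher at the first site. Gngt1, the gamma subunit of rod transducin, and Cngb1, the partner of Cnga1, were not analysed here.

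The cone counterparts were also higher in retina, in 6 of 6 measured of 10 listed genes at each site, beside those same shares of all probe sets. The median log2 difference of the 6 was 5.15 at site 2 and 4.08 at the first site. Gnat2, the cone transducin alpha subunit, differed by 5.52 ± 0.23 at site 2 and 5.37 ± 0.15 at the first site. Opn1sw, the short-wavelength cone opsin, differed by 6.02 ± 0.42 at site 2 and 4.91 ± 0.15 at the first site. Cortex exceeded the no-target controls on 2 of 3 arrays at site 2 for both genes. At the first site it did so on 3 of 5 for Gnat2 and 2 of 5 for Opn1sw. Gngt2, the cone gamma subunit, was at least 5.32-fold higher at site 2 and at least 3.71-fold higher at the first site. Cnga3, the cone counterpart of Cnga1, was at least 1.57-fold higher at site 2, and at the first site it was called higher with no fold to give, since retina exceeded the no-target controls on 1 of 5 arrays and cortex on 0 of 5.

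The 5 G protein beta subunits went in both directions. Gnb1 at 97458_at, its probe set of highest mean over the 16 arrays, and Gnb3 and Gnb5 were called higher in retina at both sites, and Gnb2 and Gnb4 were called lower. Gnb3, the cone transducin beta subunit, differed by 6.05 ± 0.17 at site 2 and 4.44 ± 0.13 at the first site. Its cortex values exceeded the no-target controls on 1 of 3 arrays at site 2 and on 5 of 5 at the first site. Gnb5, the partner of Rgs9, differed by 2.92 ± 0.16 at site 2 and 3.15 ± 0.08 at the first site. Gnb2 differed by -1.19 ± 0.27 at site 2 and -1.88 ± 0.11 at the first site, and Gnb4 by -2.59 ± 0.28 at site 2 and -2.41 ± 0.10 at the first site.

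Of 12 measured alpha subunits outside phototransduction, 0 were called higher and 6 lower at site 2, and 1 higher and 9 lower at the first site. Over all probe sets, 15.9% were called lower at site 2 and 25.2% at the first site. Gnai1, an inhibitory alpha subunit, differed by -1.74 at site 2 and -1.73 at the first site, and Gnai3, of the same class, by -0.77 at site 2 and -1.50 at the first site. Gnaz had 0.76 at site 2 and 0.05 at the first site, and neither passed the test. The 1 called higher, at the first site, was Gna14, which exceeded the no-target controls on 0 of 5 retina and 0 of 5 cortex arrays there, so it has no measured level in either tissue.

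Of 7 measured gamma subunits, 1 was called higher and 4 lower at site 2, and 2 higher and 5 lower at the first site, beside those same shares of all probe sets. The 1 called higher at site 2 was Gngt2, which is also in the cone list. The 2 at the first site were Gngt2 and Gng11. Gng2 was lower, by -2.09 at site 2 and -2.83 at the first site. Gng11 had 0.48 at site 2, which did not pass the test, and 0.56 at the first site, which did. Of 8 measured genes listed as other cyclic nucleotide phosphodiesterases, 3 were called higher and 3 lower at each site, beside the same shares of all probe sets. The median of the 8 was 0.11 at site 2 and 0.08 at the first site. Pde8a, which hydrolyses cyclic AMP, differed by 2.41 at site 2 and 2.30 at the first site, where cortex exceeded the no-target controls on 2 of 5 arrays. Pde1a, which calmodulin activates, differed by -1.43 at site 2 and -1.70 at the first site. Its retina values exceeded the controls on 2 of 3 arrays at site 2 and 2 of 5 at the first site. Pde6d, 1 of the 3 called higher, is named after the Pde6 family and carries prenylated proteins to the outer segment. It differed by 1.68 at site 2 and 1.26 at the first site. Pde4b had 0.30 at site 2 and 0.06 at the first site, and neither value passed the test.

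**Figure D4:**
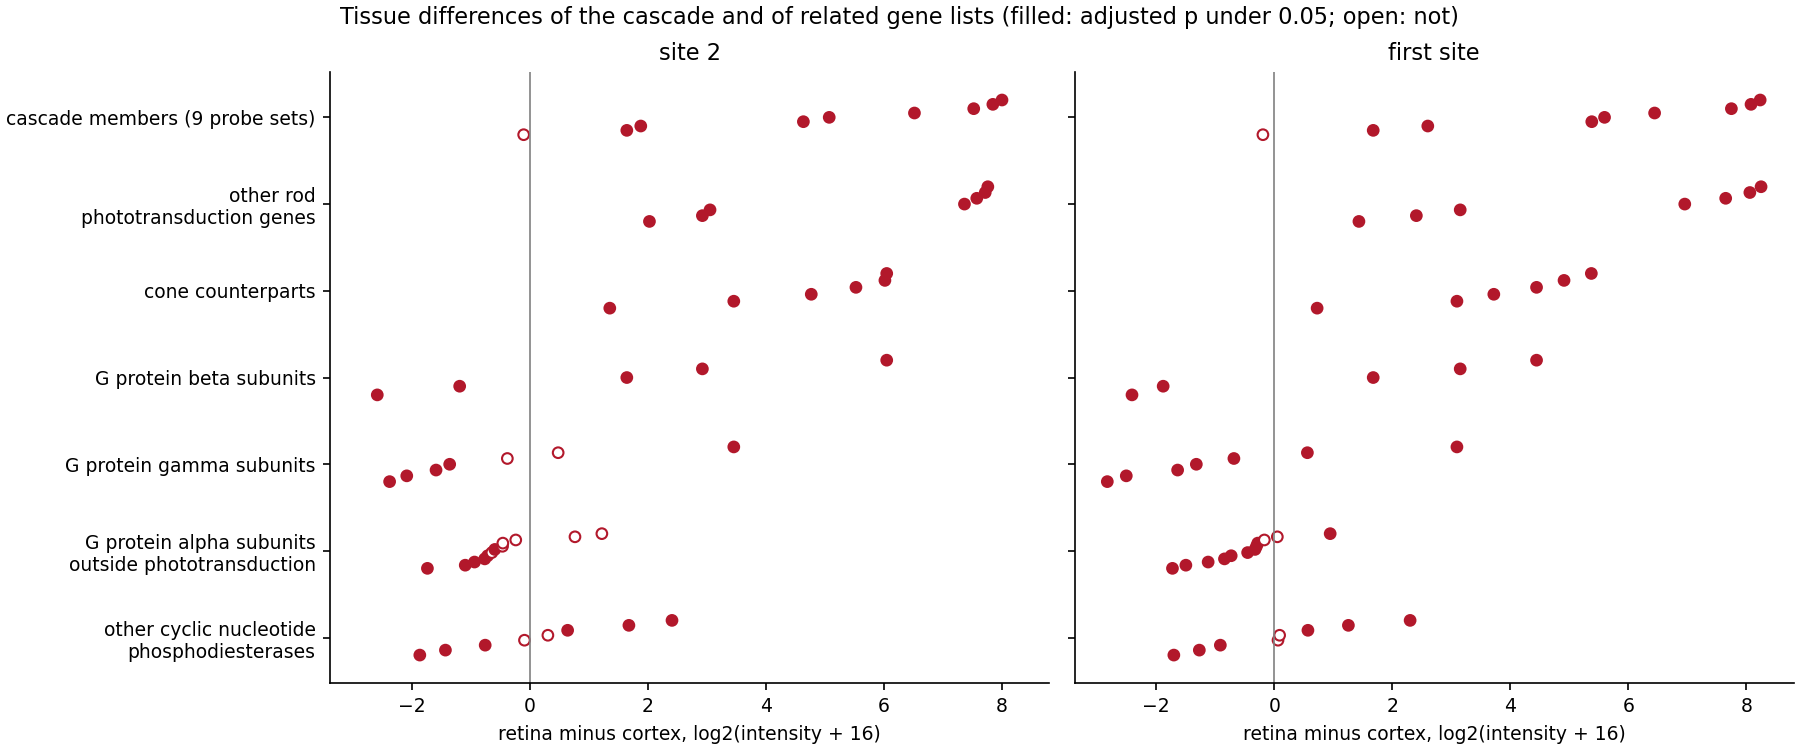
Retina minus cortex difference on the log2(intensity + 16) scale by gene list, site 2 on the left and the first site on the right; each dot is 1 gene at its probe set of highest mean over the 16 arrays, or 1 of the 9 member probe sets in the top row, filled where the limma adjusted p was under 0.05. The rod and cone lists lie above 0 throughout, and the other G protein and phosphodiesterase lists lie on both sides of it, with medians of -0.62, -1.36 and 0.11 for alpha subunits, gamma subunits and phosphodiesterases at site 2. The cone subunits Gnb3 and Gngt2 are also in the beta and gamma lists, and Gnb5 is in both the rod and beta lists.

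Markers of other cells were counted in the same way. Over all probe sets, 16.7% were called higher and 15.9% lower in retina at site 2. At the first site the shares were 21.9% and 25.2%. Bipolar cell, Mueller glia, amacrine and horizontal cell and ganglion cell markers were called higher in retina in 3 of 4, 3 of 4, 5 of 5 and 3 of 3 measured genes at site 2, and in 4 of 4, 4 of 4, 5 of 5 and 3 of 3 at the first site. All 3 measured newborn cortical neuron markers were lower in retina at both sites, with sums of 137 to 169 in retina and 5163 to 10673 in cortex at site 2 and of 139 to 164 in retina and 6052 to 7053 in cortex at the first site. Retinal pigment epithelium markers were called higher in 3 and lower in 1 of 4 at each site, lens markers higher in 2 of 4, radial glia and progenitor markers lower in 4 of 5, the red blood cell marker lower in 1 of 1, and endothelial markers higher in 1 and lower in 1 of 3. The part of these cells in the differences of the members, Gnb1 included, was not tested.

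The genes most like Gnat1 over the 16 arrays were ranked by the root mean square distance between log2 profiles, each centred on its own mean. They were Sag at 0.15, Pdc at 0.20, Rom1, an outer segment disc membrane protein, at 0.25, Rcvrn, the calcium sensor recoverin, at 0.27, and Guca1a, an activator of retinal guanylate cyclase, at 0.54. Of the members, Pde6b 94701_at was at 0.21, Pde6g at 0.33, Cnga1 at 0.80 and Pde6a at 1.38 from Gnat1. The other Pde6b probe set, 162167_f_at, was at 1.41. The Gnb1 probe sets were at 2.84 for 94853_at, 3.65 for 97458_at and 4.15 for 94854_g_at.

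The genes most like Gnb1 97458_at were Pdpk1 at 0.91, Actb at 0.93 through 101578_f_at, Sp4 at 0.95, Anp32a at 1.00 and Dusp8 at 1.09. The other Gnb1 probe sets were farther from it, at 1.48 for 94854_g_at and 1.69 for 94853_at. All 5 genes were lower at site 2, with differences of -1.88 to -2.99 in retina and -1.50 to -4.32 in cortex on the log2 scale. Gnb1 97458_at had -3.83 and -3.80. The 5 genes were picked for a profile like that of 97458_at over these same arrays, so their direction is no separate result. The measure weighs the sites and the tissues together, and it was computed over arrays that share 2 RNA pools.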

How the data were processed

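The authors deposited 1 linear intensity per probe set and array. The summarisation of probes, and any background correction, is not given in the sources used here. No value was below 0, and summed intensity per array ran from 2531150 to 8753140. Gene names came from the platform annotation, updated to RefSeq: of 12488 probe sets, 66 were controls, 10833 had 1 symbol (10817 matched), 396 several and 1193 none. The number of arrays limits the precision.

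From the deposited intensity, log2(intensity + 16) was computed, each array was centred on its median, and limma 3.58.1 in R 4.3.3 (lmFit, eBayes with an intensity trend) was fitted over 12422 probe sets, two-sided, with Benjamini-Hochberg adjustment over all of them at 0.05. Tissue differences were fitted within each site. Site differences and the interaction came from 1 fit over 16 arrays. The computation was tested on simulated data. All member probe sets were named. Of each list, counts and up to 4 genes of the largest and smallest tissue difference at the first site were given, and all beta subunits, each gene at its probe set of highest mean. Pde6d and Gna14 were named after their values were seen. For likeness the nearest 5 genes were named. The members and lists were chosen with earlier results of these data known, and the no-target floor after the data were seen. Same-numbered arrays deviated with correlations of -0.19 to 0.29, the highest for replicate 2 of the cortex groups. These correlations do not settle whether the numbers pair the arrays, and the main fits used no pairing. The fits were repeated with a pseudocount of 1 or 50, without centring, with quantile normalization, with scaling first, without the trend, with a filter on dim probe sets, as 1 fit for all arrays, with a replicate block and without each array in turn.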

Additional observations from a re-analysis of the deposited data

Results flagged for a closer look

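Among 18 groups of 5 arrays, each a member probe set in 1 tissue at the first site, 3 had 1 array far from the other 4, where chance gives about 1 in 20 groups. For Gnat1 99860_at in first-site cortex, replicate 5 stood at a scaled intensity of 30.0 and the others at 22.7 to 23.7, all near the no-target controls. For Gnb1 94853_at in first-site retina, replicate 3 stood at 1641 and the others at 1464 to 1512. For Cnga1 95389_at in first-site cortex, replicate 2 stood at 7.69 and the others at 2.49 to 3.97, all at or under the no-target controls. The groups of 3 arrays at site 2 were not examined in this way.

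The retina minus cortex difference of Gnb1 94853_at differed between the sites, with an interaction of -0.72 ± 0.15 on the log2 scale (limma adjusted p = 0.0080). It was the 1 member probe set called among the 4 whose interaction was measured.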

How the results depend on the processing

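The 9 first-site tissue differences kept direction and side of the threshold in all 171 alternative values. At site 2, 130 of 135 did: without centring, Gnb1 94853_at (1.82, limma adjusted p = 0.073) and 97458_at (1.58, adjusted p = 0.18) were lost, and 94854_g_at ranged from -0.51 to 0.18 when arrays were left out in turn, 0.18 without cortex_site2 replicate 1 and 0.015 without replicate 3. Member counts under leave-one-out were 8 to 9 for site 2 tissue differences, 1 for the interaction, 3 to 6 for the site difference within retina and 2 to 3 within cortex. Without centring they were 0 for the interaction, 1 within retina and 1 within cortex. The leave-one-out count of 9 at site 2 took both directions together. It came without cortex replicate 2 of site 2, where Gnb1 94854_g_at was called lower in retina.

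Interactions changed sign for Gnb1 97458_at with pseudocount 1 (0.083) and between -0.31 and 0.13 under leave-one-out, and for 94854_g_at without centring (-0.051) and between -0.32 and 0.37 under leave-one-out. The retina site difference of Pde6g was 0.12 with quantile normalization and -0.15 to 0.068 under leave-one-out, and that of Pde6a in cortex was -0.28 to 0.019. Quantile normalization brought calls for Pde6b 94701_at (-0.19, limma adjusted p = 0.045) and Cnga1 (-0.36, adjusted p = 0.011) within retina, and scaling first or leaving out cortex replicate 2 of site 2 brought one for Gnat1 (adjusted p = 0.029 and 0.016).

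Over all probe sets, there were 781 calls without centring against 4043 with it at site 2, 34 against 418 for the interaction, 290 against 4437 within retina and 79 against 2076 within cortex, and the cause was not tested. The interaction had 255 without the trend and 212 to 671 under leave-one-out, and leaving out cortex replicate 2 of site 2 gave 4976 within cortex. Without that array, 33 of 34 list counts at site 2 stayed within 1.5 times, and the alpha subunits called higher were 1. This last alternative was chosen after seeing the data.

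With the replicate block, Pde6b 162167_f_at within retina was lost (-0.57, limma adjusted p = 0.055), and no other member call changed. Sizes near the no-target controls are limited by signal over background.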
